A study of Macaca fascicularis with 10 samples.

Results

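SLC17A6 and SLC17A8 encode transporters that load glutamate into synaptic vesicles, and both genes were read here by parental allele in the dorsal raphe nucleus of macaques. The members were chosen by name, as the rows SLC17A6 and SLC17A8 of the deposited count table, and they are 2 of its 7229 genes. RNA of this brainstem nucleus, a main source of the forebrain's serotonin, was sequenced from 10 females of the species Macaca fascicularis (cynomolgus macaque), called daughters here because the labels name the parents of each. The labels give all of them as 1 group, with 1 tissue and no treatment, genotype or age. The comparison is therefore between the paternal and the maternal column within each daughter. The question is whether the allele from 1 parent is used more than the other, and whether daughters differ in this.

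Vesicular glutamate transporters use the electrical and proton gradient made by the vesicle's proton pump to fill synaptic vesicles with glutamate, and a neuron that has 1 of them can release glutamate. SLC17A6 encodes VGLUT2, the form found in many subcortical glutamate neurons. SLC17A8 encodes VGLUT3, which in rodents is found in neurons that mainly use another transmitter, among them a subset of raphe serotonin neurons that release glutamate as well. The third family member of this kind, SLC17A7 (VGLUT1), is typical of cortical glutamate neurons and was not analysed here.

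It is assumed, with no way to check it in the files, that a read was counted where it distinguished the parental alleles. If so, the total of a gene in a daughter follows her number of informative positions as well as expression. Daughter 1 was the shallowest library with 30090 allelic reads and daughter 6 the deepest with 999471, and the paternal column held between 49.3% and 50.4% of them. Of 15 serotonin neuron markers, 8 had rows, among them TPH2, SLC6A4, SLC18A2 and DDC. TPH2 had 10 or more reads in 7 daughters and SLC6A4 in 2. Of the lists for other cells, 0 of 6 astrocyte, 0 of 5 oligodendrocyte, 0 of 5 microglial and 0 of 5 cerebellar markers were analysed, against 4 of 5 endothelial and 3 of 4 GABA neuron markers. Also included were 4 of 4 catecholamine, 2 of 3 cholinergic and 1 of 4 cortical glutamate neuron markers. Their part in the results was not tested. In bulk tissue, fewer cells of a type and less RNA per cell cannot be told apart. Levels are not compared between genes, since neither transcript length nor the number of informative positions is given in the sources used here.

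The alleles of SLC17A8 were read about equally in 8 of the 9 daughters with a count, and daughter 9 stood apart with fewer paternal reads. Daughter 1 had no count. Daughter 2 had 41 paternal and 33 maternal reads, daughter 3 had 35 paternal and 36 maternal, and daughter 4 had 31 paternal and 36 maternal. Daughter 5 had 25 paternal and 19 maternal reads, and daughter 6 had 57 paternal and 69 maternal. Daughter 7 had 21 paternal and 23 maternal reads and daughter 8 had 47 paternal and 42 maternal. Daughters 2, 5 and 8 thus had slightly more paternal reads, and daughters 3, 4, 6 and 7 slightly more maternal reads. Daughter 9 had 11 paternal against 26 maternal reads, a ratio of 0.423. Daughter 10 had 12 of each. In all, SLC17A8 had 280 paternal and 296 maternal reads.

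**Figure D1:**
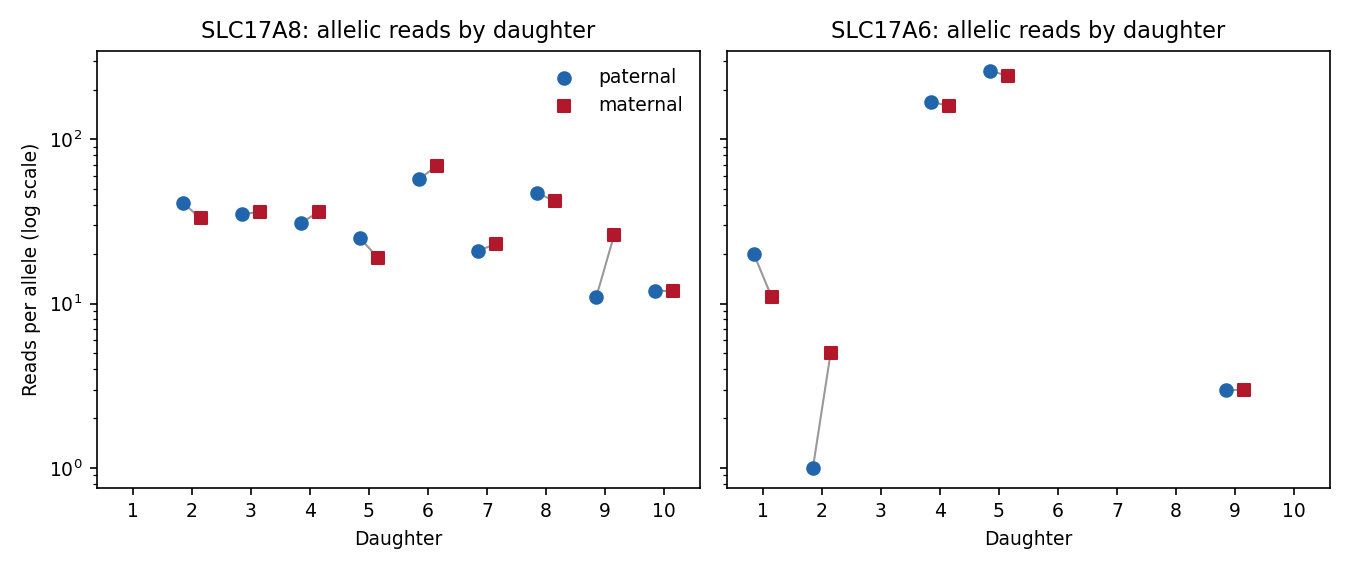
Allelic reads (y axis, log scale) of SLC17A8 (left) and SLC17A6 (right) in each daughter (x axis), with the paternal allele as a blue circle and the maternal allele as a red square. The pairs lie close together except in daughter 9 for SLC17A8 (11 paternal, 26 maternal) and in the thinly read daughters 1 and 2 for SLC17A6.

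As a share of allelic reads, the paternal allele of SLC17A8 took 48.1% ± 7.95 (SD, n = 9 daughters), with a median of 49.3%. The lowest share was 29.7% in daughter 9 and the next lowest 45.2% in daughter 6, while the highest were 56.8% in daughter 5 and 55.4% in daughter 2. The share lay between 40% and 60% in 8 of 9 daughters. Without daughter 9 the mean was 50.4% ± 4.21 (SD, n = 8). Counting error alone around equal alleles would give an SD of 6.99 points at these read numbers, so the spread between daughters was little more than that of counting. The 95% Wilson interval of the share left out 50% in 1 of 9 daughters, daughter 9 (17.5 to 45.8). Over the whole table, where 10 or more reads were at hand, it did so for 20.1% of the pairs of a gene and a daughter. Pooled over daughters, 48.6% of 576 reads were paternal (44.6 to 52.7). Reads are not independent molecules, so these intervals cover counting error only.

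No difference between the parental alleles of SLC17A8 was detected. The log2 ratio of paternal over maternal reads was -0.09 ± 0.16 (SE, edgeR's quasi-likelihood test with the daughter as block, Benjamini-Hochberg adjusted p = 1), where daughter 1 adds nothing. The percentage of genes called was 0% of 2981 tested, with 93 at an unadjusted p under 0.05 by edgeR and 62 by DESeq2, which also called 0. The median log2 ratio of all tested genes was -0.01. Taken per daughter as log2 of (paternal + 0.5) over (maternal + 0.5), the mean ratio of SLC17A8 was -0.11 ± 0.47 (SD, n = 9). It was above 0 in 3 daughters, below 0 in 5 and at 0 in 1 (two-sided exact permutation test swapping alleles within daughters, p = 0.617; the smallest possible is 0.00391). Without daughter 9 the direction turned, to 0.03 (exact permutation p = 0.781, n = 8).

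**Figure D2:**
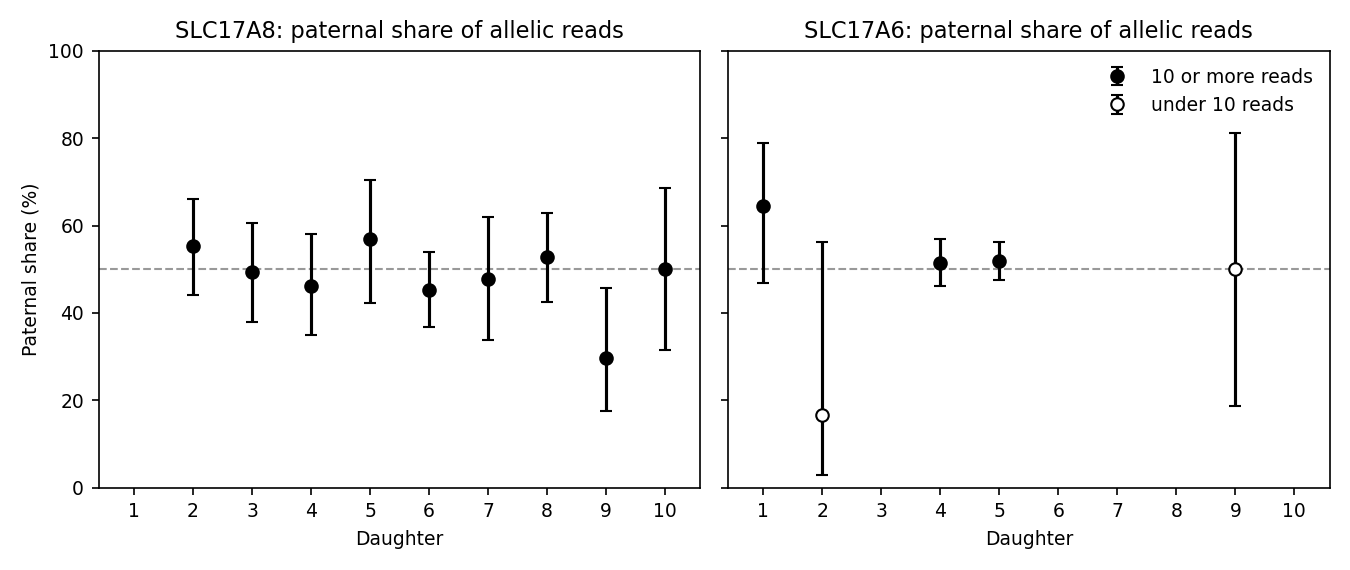
Paternal share of allelic reads (y axis, percent) of SLC17A8 (left) and SLC17A6 (right) in each daughter (x axis), with 95% Wilson intervals as bars and the dashed line at equal alleles. Filled points have 10 or more reads and open points fewer; daughter 9 is the daughter whose SLC17A8 interval, 17.5 to 45.8, leaves out 50%.

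SLC17A6, the VGLUT2 gene, had counts in fewer daughters, and its 2 well-read daughters were close to equal alleles. It had a count in 5 of 10 daughters and 10 or more reads in 3. Daughter 5 had 261 paternal and 242 maternal reads, daughter 4 had 169 paternal and 159 maternal, and daughter 1 had 20 paternal and 11 maternal. These give paternal shares of 51.9% (95% Wilson interval 47.5 to 56.2) in daughter 5, 51.5% (46.1 to 56.9) in daughter 4 and 64.5% (46.9 to 78.9) in daughter 1. All 3 intervals include equal shares. The paternal count was the higher in each of the 3. Daughters 2 and 9 had 6 reads each, with 1 paternal and 5 maternal reads in daughter 2 and 3 of each in daughter 9.

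The mean paternal share of SLC17A6 was 56.0% ± 7.40 (SD, n = 3) with daughters weighted equally. Pooled over the same daughters, 52.2% of 862 reads were paternal (48.9 to 55.5). Daughter 1 sets the gap between the values, since without daughter 1 the mean was 51.7% (n = 2). The mean log2 ratio was 0.34 ± 0.42 (SD, n = 3; two-sided exact permutation test, p = 0.25, which is the smallest p that 3 daughters allow). Without daughter 1 it was 0.098 (n = 2). Over all 5 daughters with a count the direction turned, with a mean log2 ratio of -0.17 ± 1.01 (SD, n = 5; exact permutation p = 1), because daughter 2 with 6 reads weighs as much as daughter 5 with 503. SLC17A6 did not have 10 reads in enough daughters for the test over all genes. In the fit without a read filter, it had a log2 ratio of 0.10 ± 0.28 (SE, edgeR adjusted p = 1, with 5 daughters contributing).

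The genes could be set side by side in daughters 4 and 5. In daughter 4 the paternal share was 51.5% for SLC17A6 and 46.3% for SLC17A8, and in daughter 5 it was 51.9% for SLC17A6 and 56.8% for SLC17A8. The difference in log2 ratio, SLC17A6 minus SLC17A8, averaged 0.01 over these 2 daughters and took opposite signs, 0.30 in daughter 4 and -0.28 in daughter 5. With 2 daughters the smallest p of the exact permutation test is 0.5, so no call was possible.

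The level of SLC17A8, as CPM (both alleles together, scaled to the total of a daughter's allelic reads), was 117 ± 64.5 (SD, n = 9). Daughter 8 was highest at 256, followed by daughter 7 at 161, daughter 2 at 135, daughter 6 at 126 and daughter 3 at 109. Daughter 9 had 88.6 CPM, daughter 4 had 79.7, and daughters 10 and 5 were lowest at 48.1 and 47.96, so the highest level was 5.33 times the lowest. The 95% exact Poisson intervals, which cover counting error only, overlapped between all 8 pairs of neighbours in this order. Daughters farther apart in the order did not all overlap, with 205 to 314 in daughter 8 and 34.8 to 64.4 in daughter 5. For SLC17A6, daughter 1 stood at 1030 CPM, daughter 5 at 548 and daughter 4 at 390, while daughters 9 and 2 had 14.4 and 10.97. Here the Poisson intervals overlapped between daughters 9 and 2 and between no other neighbours in the order. Which part of these differences comes from informative positions was not tested. The SLC17A8 levels rest on 24 reads in daughter 10, the fewest, up to 126 in daughter 6, and those of SLC17A6 in daughters 9 and 2 on 6 reads each.

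Allele by allele, the paternal and the maternal reads of SLC17A8 were high and low in the same daughters. In CPM of each column's own total, daughter 8 had 270.4 paternal and 240.7 maternal, and daughter 7 had 154 paternal and 168 maternal. At the low end, daughter 10 had 48.9 paternal and 47.4 maternal, and daughter 5 had 54.5 paternal and 41.4 maternal. Daughter 9 had 52.8 paternal CPM, near the lowest of the 9, and 124 maternal CPM, in the middle of them. Over 9 daughters Pearson's r was 0.903 (two-sided exact permutation p = 0.00138, adjusted p = 0.00391 over 1108 genes) and Spearman's rho 0.767 (exact permutation p = 0.0214, adjusted p = 0.0376). Of those 1108 genes, 74.2% were called with r above 0, and the median r was 0.858, so the relation is that of most genes. Without daughters 5 and 8, the farthest from the median maternal level, r was 0.726 (exact permutation p = 0.0579, n = 7) and no longer passed. Without daughter 5 alone r was 0.903 (unadjusted exact permutation p = 0.00342, n = 8). Leaving out daughter 8 alone gave 0.765 (unadjusted exact permutation p = 0.0298, n = 8). Within title prefix 10203, treated as a batch, r was 0.847 over 5 daughters, under the minimum of 6 set here for testing a correlation. The other prefix holds 4 daughters. Both alleles of a daughter share her library and her informative positions.

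**Figure D3:**
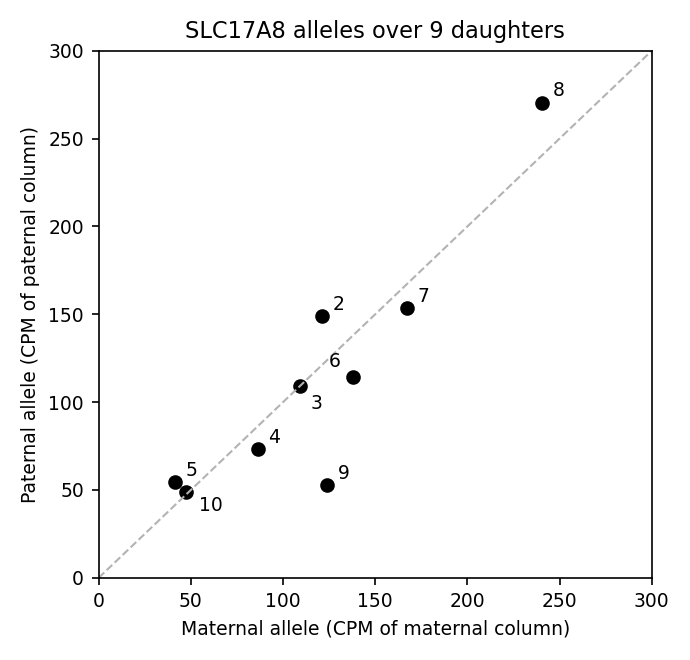
SLC17A8 in CPM of the paternal column (y axis) against CPM of the maternal column (x axis), 1 point per daughter with her number, and the dashed line at equal CPM. Daughter 8 is high for both alleles (270.4 paternal, 240.7 maternal), and daughter 9 lies farthest below the line (52.8 paternal, 124 maternal).

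Daughters of the same labelled father or mother were compared, since they may carry the same allele from that parent. For SLC17A8, daughters 4 and 5, with the same father, had paternal shares of 46.3% and 56.8%. Daughters 7 and 8 again share a father and had 47.7% and 52.8%, while the maternal sisters 6 and 10 had 45.2% and 50%. In the father-sharing pairs 1 sister was on each side of equal shares, and no interval of these daughters left out 50%. The 3 pairs sharing a labelled parent lay 0.39 ± 0.18 apart in log2 ratio on average, against 0.51 ± 0.46 for the remaining 33 pairs (SD over pairs, which share daughters). The difference was -0.12 (two-sided exact permutation of the 9 daughters, p = 0.614). Without daughter 9 it turned, to 0.11 (exact permutation p = 0.343). For SLC17A6, daughters 4 and 5 had 51.5% and 51.9%, a distance of 0.02 in log2 ratio, and no other pair sharing a parent could be compared.

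The sample titles carry 2 prefixes, 10480 and 10203, and nothing in the labels says what they stand for. The paternal share of SLC17A8 was 45.1% ± 10.4 (SD, n = 4) with prefix 10480 and 50.6% ± 5.27 (SD, n = 5) with prefix 10203. The mean log2 ratio was -0.29 ± 0.62 with prefix 10480 and 0.03 ± 0.30 with prefix 10203, a difference of -0.33 (two-sided exact permutation p = 0.373; n = 4 and n = 5). Daughter 9 carries most of it, since without daughter 9 the difference was -0.02 (exact permutation p = 0.893). SLC17A6 had 10 or more reads in no daughter of prefix 10480, so prefix and gene could not be compared there.

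Scaled to counting error, the variation of SLC17A8 between daughters lay in the lower part of the range seen in the table. By the SD of the paternal share it lay nearer the middle. The squared departure from equal alleles, divided by that of counting error, averaged 1.07 over its 9 daughters. A value of 1 is what counting alone would give. The median was 2.45 over the 1108 genes that reached 10 reads in at least 8 daughters, and 86.2% of them were higher. This measure grows with read number, and SLC17A8 had a median of 67 reads per daughter, against 93.3 for the median gene. The SD of the paternal share was 7.95 points for SLC17A8 and 9.12 for the median gene, and 60.3% of genes had a higher SD. Of the departure of SLC17A8, daughter 9 alone gave 6.08, and without her the average was 0.448. This is a description of where the gene lies and not a test.

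No gene was called among these transporters and the genes that act together with them. Of 75 genes in the lists for vesicular transport, the vesicular proton pump, glutamate synthesis and uptake, and glutamate receptors, 32 were in the table and 15 were tested by edgeR. Of these, 0 were called in either direction, against 0% of all genes, and 0 had an unadjusted p under 0.05. DESeq2 also called 0 genes in the whole table. The median log2 ratio of the 15 was 0.00, beside -0.01 for all tested genes. In single daughters, the Wilson interval left out 50% in 23 of 142 measurements, or 16.2%, near the 20.1% of the whole table. SLC17A8 and SLC17A6 are themselves in these lists, and SLC17A8 is among the 15 tested. SLC17A8 gave 9 of the 142 measurements and SLC17A6 gave 3. The paternal share lay between 40% and 60% in 121 of the 142, a measure not counted for the whole table. By list, the interval left out 50% in 8 of 25 measurements (32%) of the proton pump genes. ATP6AP1, named below, gave 3 of these 8. In the other lists here the percentage ran from 0% for metabotropic to 15.1% for ionotropic receptors. Among the other SLC17 and SLC18 transporters with a row, SLC17A9 and SLC18A1 had fewer than 10 reads in every daughter.

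Among the partners in the vesicle, ATP6V0A1, a membrane subunit of the proton pump, averaged a paternal share of 52.8% ± 6.12 (SD, n = 10) and stood at 50.2% of 307 reads in daughter 9. ATP6V1E1, a subunit of the pump's part outside the membrane, had 47.2% ± 5.59 (SD, n = 5). ATP6AP1, an X-linked gene for an accessory protein of the pump, was far from balance in the 3 daughters measured, where daughter 4 had 75.7% of 144 reads, daughter 5 had 26.3% of 167 and daughter 6 had 36.9% of 168. It was singled out after its values were seen. SLC18A2 loads monoamines such as serotonin into vesicles. In daughter 3 the paternal share was 49.3% of 71 reads for SLC17A8 and 56.3% of 554 for SLC18A2, and in daughter 6 it was 45.2% of 126 reads for SLC17A8 and 51.1% of 174 for SLC18A2.

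Genes of glutamate supply lay in a like range on average. The aspartate aminotransferase genes, whose enzymes interconvert glutamate and aspartate, had 47.7% ± 3.74 for GOT1 (SD, n = 7) and 51.2% ± 6.46 for GOT2 (SD, n = 8). SLC38A1, a glutamine transporter, had 48.1% ± 8.30 (SD, n = 8), with its lowest share, 30.8%, in the shallow daughter 1. SLC38A2, another glutamine transporter, had 48.4% ± 9.64 (SD, n = 6). The Wilson interval left out 50% in 3 of 8 daughters for GOT2, in 1 of 8 for SLC38A1 and in 0 for GOT1 and SLC38A2. For GOT2 these were daughter 4 with 37.4% of 481 reads, daughter 2 with 57.0% of 263 and daughter 6 with 57.1% of 541.

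Receptors for glutamate were also measured. GRIN1, the obligatory subunit of NMDA receptors, had 50.5% ± 3.42 (SD, n = 9) and GRIA2, the AMPA receptor subunit that limits calcium entry, 50.2% ± 5.35 (SD, n = 7). GRIN2C, another NMDA receptor subunit, had 53.6% ± 12.2 (SD, n = 8) on fewer reads, and went as low as 36% of 25 reads (daughter 6) and as high as 72.4% of 29 reads (daughter 8). The kainate receptor subunit GRIK5 had 52.2% ± 7.80 (SD, n = 7) and the metabotropic receptor GRM8 49.3% ± 5.01 (SD, n = 8). In daughter 9, where SLC17A8 was at 29.7%, GRIN1 was at 51.8% of 411 reads, GRIA2 at 59.3% of 135 and GRM8 at 44.6% of 148. The interval of GRIA2 in daughter 9, 50.8 to 67.2, left out 50% on the paternal side. Those of GRIN1 and GRM8 include 50%. There GRIK5 was at 65.6% of 32 reads and GRIN2C at 68.4% of 19, with intervals that include 50%.

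The serotonin synthesis enzyme gene TPH2, which marks the neurons in which SLC17A8 is known from rodents, could be set beside SLC17A8 in 7 daughters. In daughter 9 SLC17A8 was at 29.7% of 37 reads and TPH2 at 48.7% of 667 (44.95 to 52.5), inside the range of 45% to 56.1% that TPH2 had over the 7. In daughter 6 SLC17A8 had 45.2% of 126 reads and TPH2 51.6% of 5409, and in daughter 5 SLC17A8 had 56.8% of 44 reads and TPH2 56.1% of 41. The low paternal share of SLC17A8 in daughter 9 did not go with one of TPH2.

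**Figure D4:**
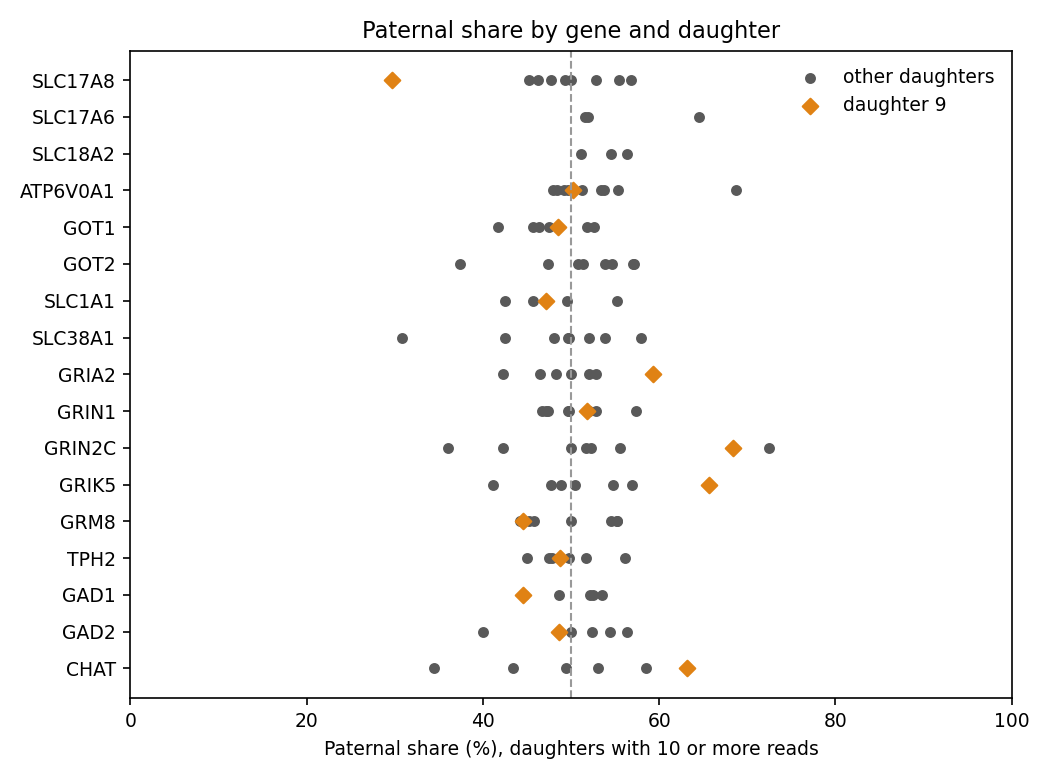
Paternal share (x axis, percent) of SLC17A8, SLC17A6, genes of vesicular loading, glutamate supply and glutamate receptors, and the neuron genes TPH2, GAD1, GAD2 and CHAT (rows). Each point is 1 daughter with 10 or more reads, with daughter 9 as an orange diamond and the dashed line at equal alleles. Other genes of the neuron lists are not shown, among them MAOA, TH and SLC5A7, which ranged from 0.99% to 73.9%. Daughter 9 is the lowest point of SLC17A8 at 29.7%, while in GRIN1 and TPH2 she lies at 51.8% and 48.7%. In GRIN2C and GRIK5 she lies at 68.4% and 65.6%.

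Genes next to the members in gene order were looked at to see whether their alleles did the same. The order comes from a newer assembly (T2T-MFA8v1.1) than that of the counts, so no coordinate is given, and the 8 nearest protein-coding genes on each side were taken, where they had a row. In daughter 9, the paternal share was 50% of 112 reads in ACTR6 and 51.5% of 33 in ANO4, the nearest on either side of SLC17A8 with 10 or more reads. Farther on the ANO4 side it was 40.7% of 150 reads in UTP20 (33.1 to 48.7) and 32.5% of 424 in MYBPC1 (28.3 to 37.1), whose intervals left out 50%. In daughter 10 SLC17A8 stood at 50% and MYBPC1 at 35.8%, and in daughter 8 SLC17A8 stood at 52.8% and MYBPC1 at 39.3%. MYBPC1 lay on the paternal side in the other 2 daughters whose interval left out 50%: in daughter 6 SLC17A8 stood at 45.2% and MYBPC1 at 66.8% of 897 reads, and in daughter 5 SLC17A8 stood at 56.8% and MYBPC1 at 59.8% of 199. In daughter 3 SLC17A8 stood at 49.3% and MYBPC1 at 48.3% of 903. Thus the neighbours of SLC17A8 did not share 1 balance in daughter 9.

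The nearest measured gene to SLC17A6 was ANO5. In daughter 5 SLC17A6 stood at 51.9% and ANO5 at 52.8% of 127 reads, and in daughter 4 SLC17A6 stood at 51.5% and ANO5 at 49.5% of 95. In daughter 1 SLC17A6 had 64.5% of 31 reads and ANO5 25% of 12. GAS2, the nearest measured gene on the other side, had 3.45% of 29 reads in daughter 2 (0.611 to 17.2), where SLC17A6 had 1 paternal of 6 reads. In daughter 5, where both genes reached 10 reads, SLC17A6 had 51.9% and GAS2 46.5% of 43. The other 3 GAS2 values with 10 or more reads, in daughters 7, 8 and 9, lay between 57.9% and 66.7% on 11 to 19 reads. LUZP2, farther away, ranged from 25.2% in daughter 2 to 75.2% in daughter 9. Its interval left out 50% in 5 of 10 daughters, among them daughters 4 and 5, with 55.2% and 44.2%. The neighbours of SLC17A6 did not lean 1 way in daughter 2. Against GAS2 and LUZP2, ANO5 had 61.3% of 155 reads there (53.4 to 68.6) and PRMT3 71.4% of 28 (52.9 to 84.7). HTATIP2 at 57.3% and NAV2 at 48.6% had intervals in daughter 2 that include 50%.

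**Figure D5:**
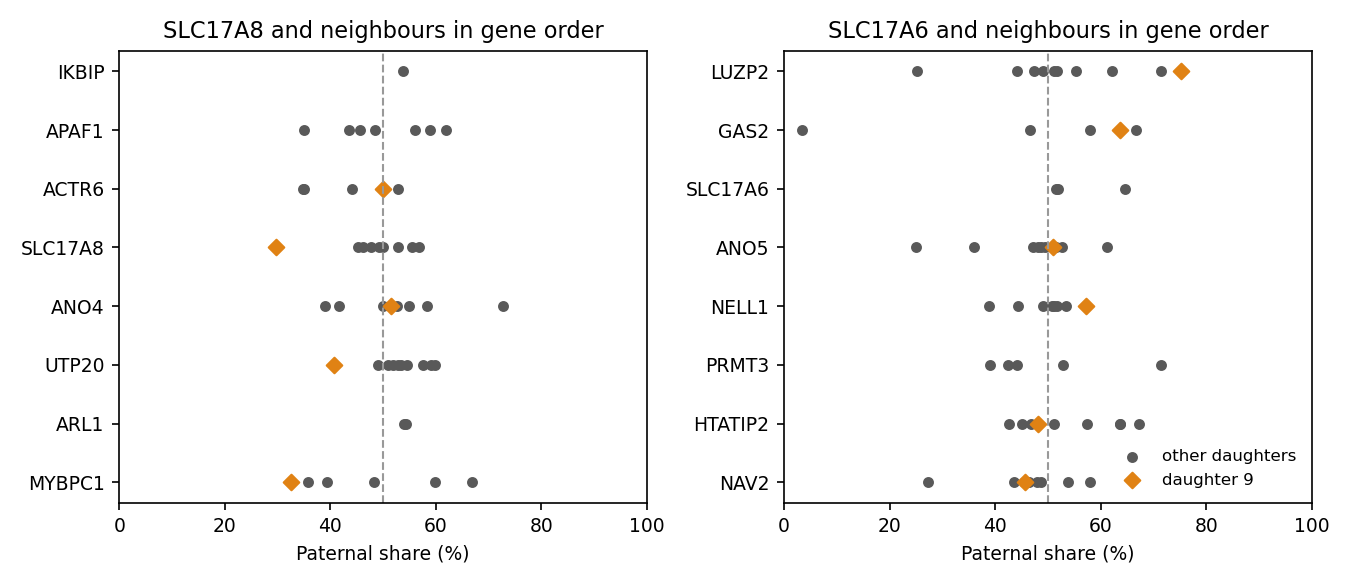
Paternal share (x axis, percent) of SLC17A8 (left) and SLC17A6 (right) with their measured neighbours in gene order from top to bottom, 1 point per daughter with 10 or more reads, daughter 9 as an orange diamond and the dashed line at equal alleles. Around SLC17A8, daughter 9 lies near 50% in ACTR6 and ANO4 and at 32.5% in MYBPC1.

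Likeness to SLC17A8 was measured by Pearson's r over its 9 daughters, among 492 genes with 10 or more reads in each of them. It is a description with no test. In the log2 ratio of the alleles, the most alike were ATXN10 (r = 0.862), SFI1 (0.853), DNAH9 (0.826), PTPRZ1 (0.818) and ZFYVE26 (0.816). Of these, each had its lowest paternal share in daughter 9, from 25% in ZFYVE26 to 44.5% in PTPRZ1, and 3 of them rest there on few reads, with 10 in SFI1, 16 in ZFYVE26 and 17 in DNAH9. Without daughter 9, an alternative added after seeing the data, r over 8 daughters was 0.661 for ATXN10, 0.692 for SFI1, 0.528 for DNAH9, 0.809 for PTPRZ1 and 0.202 for ZFYVE26. The median r over the 492 genes was -0.01 and the lowest -0.86. In log2 CPM of allelic reads, the most alike were PREX2 (0.854), DNER (0.784), RPTOR (0.780), SORCS3 (0.772) and PTPRS (0.764), with a median r of 0.07 over all 492. The points share the 9 libraries and their depths. SLC17A6 was read in too few daughters for such a comparison.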

How the data were processed

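The deposited data are 1 table of counts, whole numbers of reads per gene, in 20 columns, 1 for the paternal and 1 for the maternal allele of each of the 10 daughters. Per the labels' protocols, libraries were stranded total RNA after ribosomal RNA depletion. The submitters' processing notes name the aligner Novoalign, and the headers of the columns name the build macFas5. Phasing, informative positions and read filters are not given in the sources used here. Depth was between 30090 and 999471 allelic reads per daughter. Columns were matched to samples by title. A gene without a value in a daughter was set to 0 in both columns for the fit, where the daughter's block then adds nothing.

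Genes that reached 10 allelic reads in at least 5 daughters, 2981 of 7229, were fitted with the robust quasi-likelihood functions of edgeR 4.0.16 (R 4.3.3; glmQLFit, glmQLFTest). The daughter was the block and the 2 columns' reads were added up as library size, with Benjamini-Hochberg adjustment at 0.05. DESeq2 1.42.0 was the other tool. The fit was tested on simulated data of 2981 genes for this comparison, where 100 genes were changed 2-fold and 100 genes 4-fold. It found 68% and 100% of them and made 6 false calls, and with nothing changed it called 0. The simulation gave a changed gene the same shift in all daughters and took variation from the fitted trend. It therefore does not cover genes whose alleles vary more than that between daughters. Single values were tested over daughters with exact permutation tests, on daughters with 10 or more reads, with 0.5 added to each count in ratios. For correlations over all genes, 100000 permutations were used with 10 daughters. Intervals are 95% Wilson intervals. SciPy 1.17.1 was used. Gene order came from T2T-MFA8v1.1, which matched 6566 of 7229 symbols. The daughters come from separate animals.

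The members, gene lists and tests were chosen with earlier results of these data known. Named genes were the members, list genes past the threshold, up to 4 members of each list measured in most daughters, and the 5 most alike genes; neighbours in gene order were added after the data were seen. Lists for catecholamine, cholinergic and cortical glutamate neurons had 0 of 1, 0 of 2 and 0 of 0 tested genes called. The serotonin, GABA neuron and endothelial lists had 0 of 3, 0 of 3 and 0 of 4. In single daughters, the Wilson interval left out 50% in 42.3% of 26 serotonin, 33.3% of 12 cholinergic and 27.3% of 11 catecholamine measurements. It did so in 22.2% of 18 GABA neuron and 22.6% of 31 endothelial measurements, beside 20.1% in the whole table. MAOA gave 5 of the 11 serotonin ones. Alternatives were other scalings, read minimums, pseudocounts, no block, DESeq2 and leaving out each daughter.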

Additional observations from a re-analysis of the deposited data

Results flagged for a closer look

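The paternal share of SLC17A8 in daughter 9, 29.7% of 37 reads, lay far from the other 8 daughters, which ranged from 45.2% to 56.8%. Its gap to the next daughter was 0.573 of the whole range, above Dixon's critical value of 0.493 for 9 samples. Chance flags about 1 in 20 groups. Daughter 9 was not set apart in the table as a whole. In her, 18.1% of measurements with 10 or more reads had an interval that left out 50%, between 12.2% in daughter 1 and 23.1% in daughter 5, and the paternal column held 49.8% of her allelic reads. A cause was not tested.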

How the results depend on the processing

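Of 106 recomputed values, 97 kept their direction, their side of the threshold or their size. The count of genes called was 0 under each alternative except without the read filter, with 2, and leaving out daughters gave 0 to 1, the 1 without daughter 4. SLC17A8 itself was not called by edgeR or DESeq2 under any alternative (adjusted p of 1 throughout, rounded). Leaving out each daughter gave log2 ratios of -0.15 to 0.020 by edgeR, means of -0.17 to 0.025 over daughters, and differences between pairs sharing a parent and other pairs of -0.27 to 0.11. The value above 0 was in each case without daughter 9. With 1 or more reads the mean log2 ratio of SLC17A6 was -0.17 and its mean share 46.9% over 5 daughters, since daughters 2 and 9 enter with 6 reads each. SLC17A6 minus SLC17A8 was -0.28 to 0.30 when 1 of the 2 daughters was left out, with no test possible. The correlation of the SLC17A8 alleles was 0.73 without the 2 farthest daughters. Without the replicate block, where the daughter is no term, the SLC17A8 log2 ratio was -0.07.

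Not run: edgeR alternatives for SLC17A6 with the read filter, which it missed, and its comparisons by prefix and shared parent. The allele correlation of SLC17A6 and a tested correlation within prefix 10203 were not run either. Read number limits SLC17A8, since 24 to 126 reads leave Wilson intervals of SLC17A8 that are 17.1 to 37.1 points wide. SLC17A6 is limited by the 3 daughters that reached 10 reads. It had 31 reads in daughter 1, the shallowest library, and no value in daughter 6, the deepest.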
